A study of Mus musculus with 15 samples.

Results

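The smooth muscle contractile genes are 10 genes of the contractile apparatus and the cytoskeleton of smooth muscle: Myh11, Myl9, Acta2, Actg2, Tagln, Cnn1, Smtn, Lmod1, Des and Synm. They were chosen as all probe sets whose array annotation gives a single gene symbol equal to one of these names, which found 15 probe sets for 10 genes, of 34958 probe sets for 18194 genes in all. Expression was measured with 1 Affymetrix array per mouse in RNA from scrapings of the opened and washed colon, taken from male C57BL/6 mice aged 11 weeks. The diet of all groups was low in calcium and high in fat (40% of energy) and was given for 14 days. The 6 control mice had this diet without heme, and the 9 heme mice had it with 0.5 umol heme, the iron pigment of red meat, per g. Each array held 1 mouse, so replicates are animals, and control mouse 5 was not analysed here.

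Smooth muscle contracts when myosin, made of heavy chains such as Myh11 and regulatory light chains such as Myl9, pulls on actin filaments after the light chain is phosphorylated. Calponin, transgelin, smoothelin and leiomodin bind those actin filaments, and desmin and synemin form the intermediate filaments that link the cell's dense bodies. In the colon these proteins mark the outer muscle coat, the thin muscularis mucosae under the crypts, the walls of vessels and, for some of them, myofibroblasts around the crypts.

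The array values are log2 expression per probe set. A signal of 20, or 4.32 in log2, was taken as the floor under which a value was read as background. Where a gene had several probe sets, the one with the highest mean stood for it. Of the 10 genes, 5 were over the floor on at least 6 arrays and were tested: Myh11, Myl9, Acta2, Actg2 and Tagln. The other 5, Cnn1, Smtn, Lmod1, Des and Synm, were not. Of the 5 further probe sets, 2 for Acta2 and 1 each for Myh11, Des and Synm, none was over the floor in any mouse. In all arrays together 9257 genes were tested, the medians of the arrays ran from 3.11 to 3.24, and the number of arrays limits the precision. Control mouse 2 stood apart, with a mean of 9.63 for 6 fibroblast markers against at most 7.33 in the other controls. Control mouse 4 had a mean of 3.19 for 3 Hox genes of the distal colon, against at least 6.81 in the other controls. Results that rest on these mice are also given without them.

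All 5 tested smooth muscle genes were lower in the heme mice, with fitted falls between 2.32-fold for Acta2 and 5.46-fold for Myh11 (limma, adjusted p of 0.00771 or less). Of all tested genes 26.4% were called lower with heme and 53.6% were called in either direction. The probe-set fit called the same 5, where 24.3% of tested probe sets were called lower. The median difference of the 5 genes was -2.0 on the log2 scale, against -0.01 over all tested genes. Actg2 and Myl9 were over the floor in 3 and 5 of the 9 heme mice, so they entered the test through the controls. The count of 5 is therefore a description, with no weight as support. In a bulk scraping, fewer smooth muscle cells in the sample and less RNA per cell cannot be told apart, and how much muscle each scraping held was not measured.

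**Figure D1:**
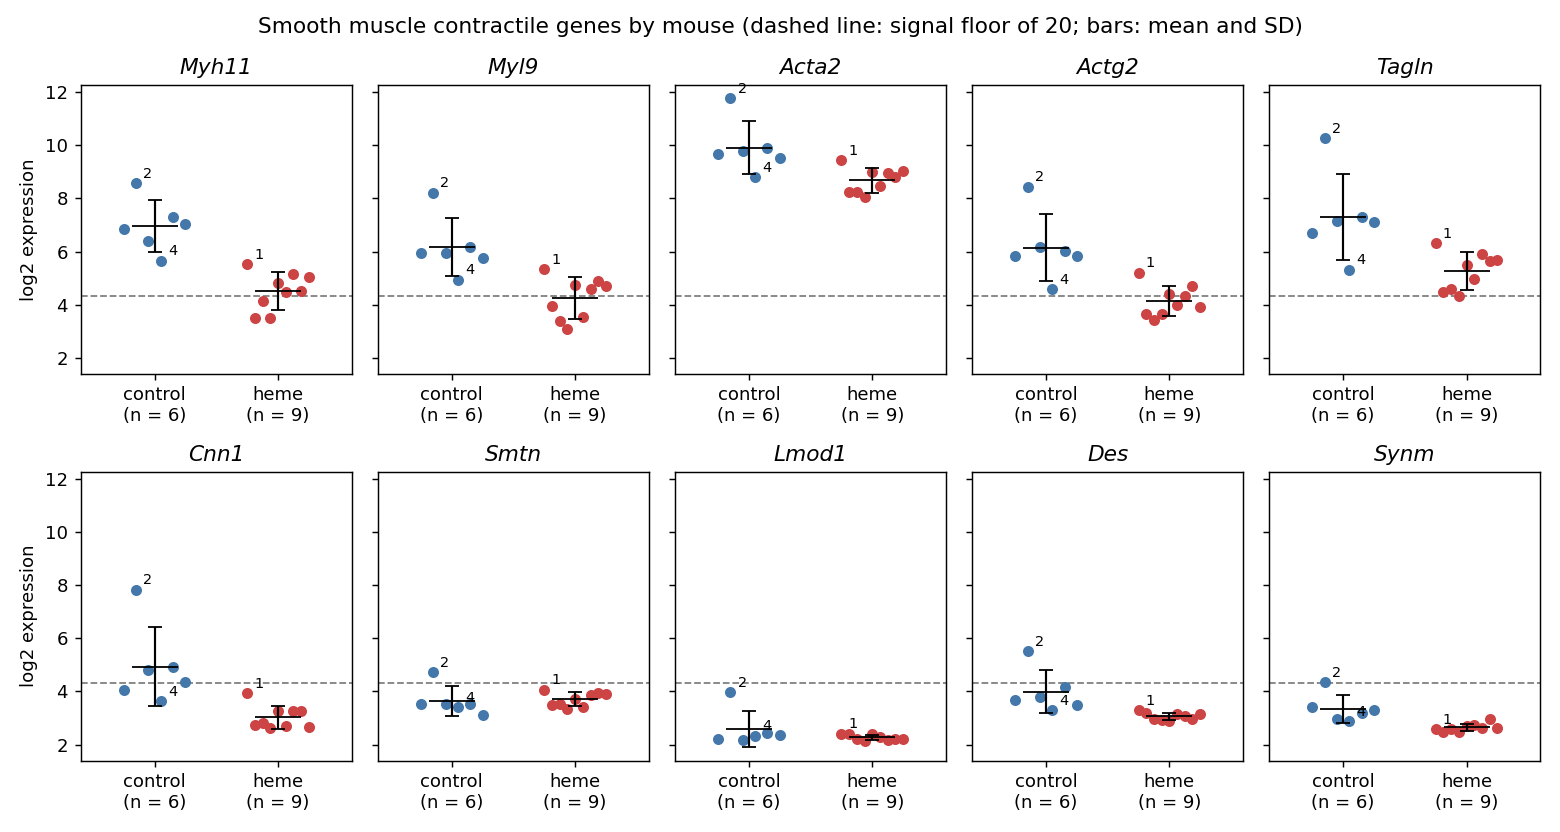
Log2 expression of the 10 smooth muscle contractile genes (vertical axis) in 6 control and 9 heme mice, 1 point per mouse, with the mean and SD as bars and the signal floor of 20 as a dashed line; the numbers mark control mice 2 and 4 and heme mouse 1. In the upper row control mouse 2 is the highest control, control mouse 4 the lowest control and heme mouse 1 the highest heme mouse in each of the 5 tested genes, and in the lower row no heme mouse lies over the floor.

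The promoter windows of Acta2 and Myl9 are shown because these are the tested members with an entry in the RefSeq promoter table (GRCm38.p6), which also holds Cnn1, Des, Lmod1, Smtn and Synm but not Myh11, Actg2 or Tagln. Each window spans 250 bases before to 50 bases after the annotated gene start. Serum response factor, with its cofactor myocardin, is known to act on smooth muscle genes through the CArG box, which is 2 C, then 6 bases of A or T, then 2 G, and reads the same way on both strands. Capitals mark a CArG box or the same motif with 1 of its 6 middle bases changed to C or G, in Acta2 at chr19:34255324-34255623 (minus strand) and Myl9 at chr2:156775214-156775513 (plus strand), both written 5′ to 3′ along the gene.
Acta2: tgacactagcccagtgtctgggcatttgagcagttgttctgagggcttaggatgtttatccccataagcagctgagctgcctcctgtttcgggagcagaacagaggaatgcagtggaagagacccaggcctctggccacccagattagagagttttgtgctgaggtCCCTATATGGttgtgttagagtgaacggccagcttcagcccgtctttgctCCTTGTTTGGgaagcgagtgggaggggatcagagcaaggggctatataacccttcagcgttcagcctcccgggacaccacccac
Myl9: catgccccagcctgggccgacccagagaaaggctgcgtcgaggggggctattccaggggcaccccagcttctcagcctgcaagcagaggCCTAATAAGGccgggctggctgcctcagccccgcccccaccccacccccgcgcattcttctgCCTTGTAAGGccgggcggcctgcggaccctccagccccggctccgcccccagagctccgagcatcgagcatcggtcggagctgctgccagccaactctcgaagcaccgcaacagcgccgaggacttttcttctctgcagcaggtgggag
The exact motif was found in 1 of the 7 members with an entry, Myl9, 161 bases before the start, against 1.63% of all 32851 promoter windows of this length. With 1 middle base changed, matches begin 84 and 34 bases before the start of Acta2, 99 before that of Myl9 and 239 before that of Synm. That looser motif, chosen after the sequences were seen, was in 3 of the 7 members and in 10% of all windows, overlaps included. A match is a description of these letters and not a measured binding site.

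Among the myosin chains, Myh11, the smooth muscle myosin heavy chain (probe set 1448962_at), ran from 5.66 through a median of 6.94 to 8.57 in control mice and from 3.50 through 4.53 to 5.52 in heme mice. All 9 heme mice lay under all 6 controls, which was so for 8.93% of all tested genes. Its mean was 6.97 ± 0.97 in controls (SD, n = 6) and 4.52 ± 0.70 in heme mice (n = 9), a log2 difference of -2.45 ± 0.39 (SE, adjusted p = 1.04e-04, limma) or 5.46-fold lower (95% interval 3.06 to 9.73). In 3 of 9 heme mice Myh11 was below the floor, and with these values set at the floor it was 4.75-fold lower.

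Myl9, the regulatory light chain of smooth muscle myosin (1452670_at), ran from 4.94 through 5.96 to 8.21 in controls and from 3.07 through 4.61 to 5.33 in heme mice. The groups overlapped only through heme mouse 1, and the other 8 heme mice were below every control. The difference was -1.92 ± 0.44 (SE, adjusted p = 0.00177, limma), or 3.79-fold lower (95% interval 1.99 to 7.22) and 2.93-fold with values under the floor set at it.

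The smooth muscle actins fell as well. Actg2, the gamma actin of visceral smooth muscle (1422340_a_at), ran from 4.57 through 5.93 to 8.43 in controls and from 3.42 through 4.0 to 5.20 in heme mice. Here 7 of 9 heme mice lay under all controls, with heme mice 1 and 8 above the lowest control. Its difference was -2.0 ± 0.43 (SE, adjusted p = 0.00117, limma), or 4.01-fold lower (95% interval 2.12 to 7.58) and 3.19-fold with values under the floor set at it.

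Acta2, the alpha actin of vascular smooth muscle and of myofibroblasts (1416454_s_at), had the smallest difference of the 5. It ran from 8.80 through 9.72 to 11.77 in controls and from 8.03 through 8.81 to 9.44 in heme mice, over the floor in all 15 mice. The groups overlapped, and 4 of 9 heme mice lay under all controls. The difference was -1.22 ± 0.35 (SE, adjusted p = 0.00771, limma), or 2.32-fold lower (95% interval 1.40 to 3.86). Averaged with its 2 probe sets under the floor, it was at -0.42 (adjusted p = 0.0277, limma). Actin genes are near-identical in their coding sequence, and a probe set with the suffix _s_at can match transcripts of several genes, so how far other actins enter this value is uncertain.

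Tagln, transgelin or SM22, an actin-binding protein that appears early in smooth muscle (1423505_at), ran from 5.31 through 7.13 to 10.26 in controls and from 4.32 through 5.51 to 6.32 in heme mice. The groups overlapped, with 4 of 9 heme mice under all controls. The difference was -2.03 ± 0.55 (SE, adjusted p = 0.00575, limma), or 4.09-fold lower (95% interval 1.82 to 9.18). Its spread among controls, an SD of 1.62, was the largest of the 5, and without control mouse 2 it was 0.81.

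The other actin-binding members were near background. Cnn1, calponin, which restrains the myosin motor, was over the floor in 4 of 6 controls and in none of the 9 heme mice. It ran from 3.63 through 4.58 to 7.83 in controls and from 2.63 through 2.81 to 3.94 in heme mice, and 8 of 9 heme mice were below every control. Measured against the floor, Cnn1 with heme was at least 1.53-fold lower, and at least 1.02-fold without control mouse 2, whose value of 7.83 stood far above the 4.36 ± 0.53 of the other 5 controls (SD). Smtn, smoothelin, a marker of contractile smooth muscle, was over the floor in 1 mouse, control mouse 2 at 4.72, and ran between 3.12 and 4.07 in all others. Lmod1, leiomodin, which nucleates actin filaments, was under the floor in all 15 mice, with control mouse 2 at 3.97 and the other controls at 2.30 ± 0.11.

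The intermediate filament members were near background too. Des, desmin, was over the floor in control mouse 2 at 5.51 and in no other mouse. The 9 heme mice, between 2.91 and 3.29, and the lowest control, at 3.30, were all under the floor. Synm, synemin, a partner of desmin, was over the floor in control mouse 2 at 4.34 and in no other mouse. Here 8 of 9 heme mice lay under the lowest control, itself under the floor at 2.88. Values this low have no reliable size, so no fold is given for Des, Synm, Smtn or Lmod1. With no filter on signal, Cnn1, Des and Synm were called lower as well (8 of 10 genes and 8 of 15 probe sets, where 15.2% of all genes and 13.1% of all probe sets were called lower), while Smtn at 0.07 and Lmod1 at -0.31 were not called (adjusted p = 0.839 and 0.291, limma). At a higher floor, a signal of 100, Acta2 alone was left to test and was called lower, where 27.1% of all genes were.

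The 5 tested genes ranked the mice nearly alike. Control mouse 2 was the highest control, control mouse 4 the lowest control and heme mouse 1 the highest heme mouse in every one of the 5. Heme mouse 4 was the lowest or next to lowest heme mouse. After each group's mean was subtracted, the 10 pairs of genes correlated over the 15 mice at r between 0.845 and 0.986, with a median of 0.933. Without control mouse 2 the range was 0.755 to 0.963, and within the 9 heme mice it was 0.750 to 0.976. These correlations share arrays and are given as a description.

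The mean of the 5 genes was 7.30 ± 1.17 in controls (SD, n = 6) and 5.37 ± 0.62 in heme mice (n = 9). Without control mouse 2 the controls were at 6.87 ± 0.58, an SD close to that of the heme mice. The 5 calls were kept without control mouse 2 (27.4% of all genes were then called lower), at smaller differences: -2.13 for Myh11 (adjusted p = 1.39e-04), -1.55 for Actg2 (6.03e-04), -1.51 for Myl9 (0.00221), -1.44 for Tagln (0.00468) and -0.84 for Acta2 (0.0066, all limma). Without control mouse 4 the 5 calls were kept (26.1% of all genes called lower) and the differences were larger, from -1.44 for Acta2 to -2.71 for Myh11. In all 5 genes every heme mouse then lay under every remaining control, which held for 10.7% of all tested genes.

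The contrast between these genes and their non-muscle relatives was taken next, since relatives encode the same kind of protein in cells other than muscle. Of 9 tested relatives 3 rose with heme (27.2% of all tested genes did), none was called lower and 6 had no call, and their median difference was -0.01. Tagln2 rose, with a log2 difference of 0.39 ± 0.08 (SE, adjusted p = 0.000636, limma), and so did Myl12a, a light chain of non-muscle myosin, at 0.24 ± 0.07 (adjusted p = 0.00634, limma). Actg1, cytoplasmic gamma actin, rose by 0.11 ± 0.04 (adjusted p = 0.0497, limma), a call lost without any 1 of the 6 controls or of heme mice 2, 4, 6, 8 and 9. Actb, cytoplasmic beta actin, was at -0.01 ± 0.05, Myh9, a non-muscle myosin heavy chain, at -0.12 ± 0.07, and Myl12b at -0.10 ± 0.05, none of them called. Quantile normalization, and averaging the probe sets of each gene, added Myl12b as called lower, as did leaving out control mouse 1, and Myh9 was called lower without control mouse 4. Cnn2, named after its values were seen, was called higher without control mouse 2.

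**Figure D2:**
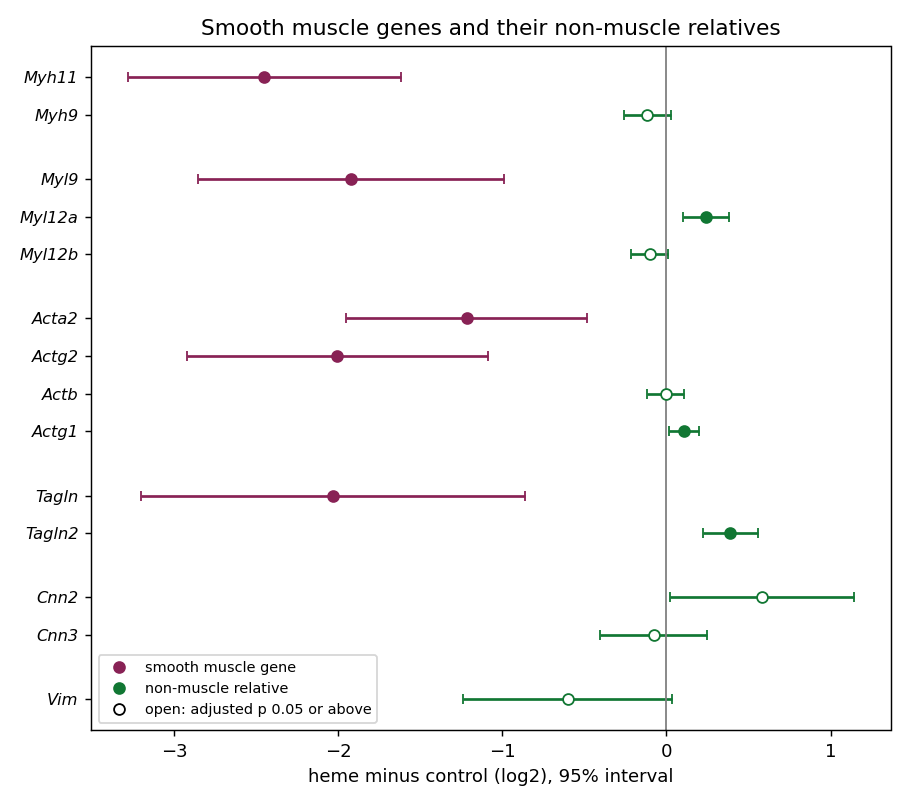
Heme minus control differences on the log2 scale (horizontal axis) with 95% intervals for the 5 tested smooth muscle genes and 9 tested non-muscle relatives, grouped by protein family, with filled points for an adjusted p under 0.05 (limma). The smooth muscle genes lie between -2.45 for Myh11 and -1.22 for Acta2, and the relatives between -0.60 for Vim and 0.58 for Cnn2, both open points.

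Each smooth muscle gene was also set against a relative within the same mouse. The pairs were chosen after the data were seen, so these values are a description, with no test. The difference between the pair moved by -2.33 with heme for Myh11 against Myh9, -2.16 for Myl9 against Myl12a, -2.11 for Actg2 against Actg1 and -2.42 for Tagln against Tagln2. Acta2 against Actb moved by -1.21. With values under the floor set at it, the pairs of Myh11, Myl9 and Actg2 were at -2.13, -1.79 and -1.78. Without control mouse 2 and with no floor, the 5 pairs were at -2.03, -1.79, -1.66, -1.87 and -0.85, in the order Myh11, Myl9, Actg2, Tagln and Acta2. Levels of different probe sets are not comparable, so only these changes carry meaning.

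Other contractile and thin filament genes were read as a list. Among its 8 tested genes 5 fell, or 4 without control mouse 2, beside 26.4% of all tested genes, none rose, and the median difference was -0.38. Mylk, the kinase that phosphorylates the light chain, fell from 10.60 ± 0.13 (SD, n = 6) to 10.03 ± 0.17 (n = 9), a difference of -0.57 ± 0.08 (SE, adjusted p = 3.78e-05, limma), and all 9 heme mice lay under all controls. Myl6, the essential light chain, fell by 0.43 ± 0.11 in log2 (adjusted p = 0.00329, limma). Ppp1r12a, the targeting subunit of myosin phosphatase, was at -0.14 ± 0.06 (adjusted p = 0.0471, limma). Its call was lost with no signal filter and with each array centred on its median. It was also lost without any 1 of control mice 1, 2, 3 and 7 and heme mice 2, 3, 5, 6 and 7. The other called genes, named after their values were seen, were Ppp1r14a, an inhibitor of that phosphatase, at -1.49 ± 0.27, and Rock1, a kinase that acts on it, at -0.25 ± 0.06. Ppp1r14a was over the floor in 6 of 6 controls and 2 of 9 heme mice, so it entered the test through the controls. With values under the floor set at it, its difference was -1.15. The tropomyosins Tpm1 at 0.02 ± 0.06 and Tpm2 at -0.51 ± 0.31 and caldesmon, Cald1, at -0.34 ± 0.41 were not called. When probe sets of a gene were averaged, Ppp1r14a and Myl6 were called lower and the other genes of the list were not. Control mouse 2, highest in the 5 smooth muscle genes, had Mylk at 10.73 against 10.58 ± 0.13 in the other controls (SD). Rock1 was at 10.68 against 10.77 ± 0.16 and Myl6 at 5.94 against 5.66 ± 0.15. It stood higher in Ppp1r14a, at 6.74 against 5.28 ± 0.54, and in the uncalled Tpm2, at 10.12 against 7.98 ± 0.38. Which cells of the scraping these values come from was not tested.

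Among 12 tested anchoring and adhesion genes of muscle there were 4 that fell, 2 that rose and 6 without a call, and the median difference was near 0. Both counts lie near the shares of all tested genes, 26.4% lower and 27.2% higher, and are no result about this list. Svil, named after its values were seen, was called higher without control mouse 2. Pdlim3, an actinin-binding protein, was at -1.09 ± 0.41 (adjusted p = 0.0353, limma). Its call was lost with no signal filter, after quantile normalization, and without any 1 of heme mice 2, 3, 4 and 9. Actn1, alpha-actinin, was at -0.20 ± 0.08 (adjusted p = 0.0408, limma). Its call was lost with no signal filter, with each array centred on its median and with the probe sets of each gene averaged. It was also lost without any 1 of control mice 2, 3, 6 and 7 and heme mice 1, 2 and 3. The other genes that fell, named after their values were seen, were Dmd, dystrophin, at -0.27 ± 0.08 and Lpp, a focal adhesion protein, at -0.32 ± 0.07. Dmd lost its call with the probe sets of each gene averaged. With the replicate number as a block 2 genes of the list were called lower, where 20.5% of all tested genes were. Vcl, vinculin, rose by 0.22 ± 0.07 and Pdlim7 by 0.52 ± 0.17 in log2 (adjusted p = 0.0122 and 0.0178, limma). Pdlim7 was over the floor in 4 controls and 9 heme mice, so it entered the test through the heme mice. With the probe sets of each gene averaged, Vcl and Ldb3 were called higher and Pdlim7 was not. Flna, filamin, at -0.67 ± 0.42 and Tln1, talin, at 0.03 ± 0.10 were not called.

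Of 13 muscle channel, calcium and receptor genes on the array 2 were tested and 8 were over the floor in no mouse. Kcnma1, a calcium-activated potassium channel, fell by 0.45 ± 0.14 in log2 (adjusted p = 0.0143, limma), and Atp2a2, the calcium pump of the reticulum, was at 0.13 ± 0.06 and not called, but was called higher without control mouse 2 and with each array centred on its median. Of 11 transcription factors 5 were tested, and 2 of these fell, where 26.4% of all tested genes did. With the replicate number as a block 1 was called lower, where 20.5% of all tested genes were. Mrtfb, a cofactor of serum response factor, fell from 9.90 ± 0.08 to 9.38 ± 0.15 (SD), a difference of -0.51 ± 0.07 (SE, adjusted p = 2.81e-05, limma), with all 9 heme mice under all controls. Gata6 fell by 0.33 ± 0.10 in log2 (adjusted p = 0.0087, limma). In control mouse 2 Mrtfb was at 9.81 against 9.91 ± 0.08 in the other controls, and Gata6 at 9.11 against 9.41 ± 0.19 (SD). Kcnma1 was at 7.12 there against 7.64 ± 0.34. The cells these values come from were not tested. Srf itself was at -0.13 ± 0.11, its cofactor Mrtfa at -0.19 ± 0.16 and Klf4, a repressor of contractile genes, at 0.08 ± 0.06, none called. Myocd, the smooth muscle cofactor of serum response factor, was over the floor in no mouse.

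**Figure D3:**
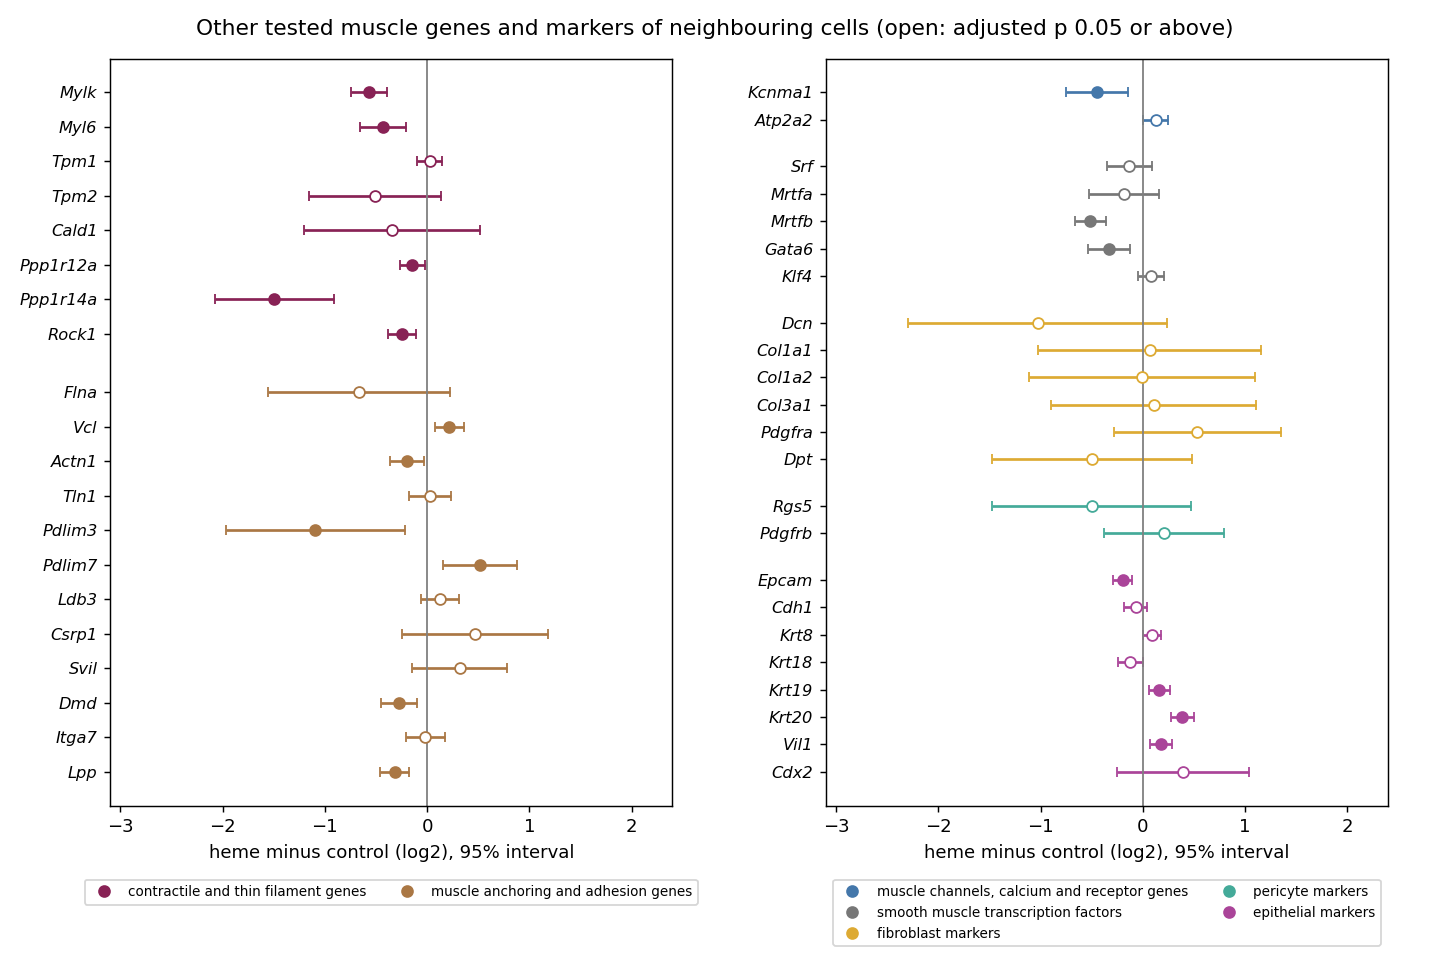
Heme minus control differences on the log2 scale (horizontal axis) with 95% intervals for other tested muscle genes (left) and for muscle channel genes, transcription factors and markers of neighbouring cells (right), with filled points for an adjusted p under 0.05 (limma). Ppp1r14a at -1.49 and Pdlim3 at -1.09 have the largest differences among the filled points of this plot, which leaves out Kit and Acta1, and the 6 fibroblast markers are all open points.

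Markers of other cells in the scraping were read beside the smooth muscle genes. Of 6 tested fibroblast markers none was called, with a median difference of 0.03. Dcn was at -1.03 ± 0.60, Dpt at -0.49 ± 0.46, Col1a2 at 0.00 ± 0.52, Col1a1 at 0.07 ± 0.51, Col3a1 at 0.11 ± 0.47 and Pdgfra at 0.53 ± 0.39. Their mean level ran from 5.85 to 9.63 in controls, or to 7.33 without control mouse 2, and from 5.97 to 7.69 in heme mice. Pdgfra and the pericyte marker Pdgfrb were called higher once control mouse 2 was left out, and Rgs5, also of pericytes, was at -0.50 ± 0.46 and not called. The summed signal of all 8 fibroblast markers ran from 570 to 8412 in controls and from 832 to 2372 in heme mice. Of 8 epithelial markers Epcam was called lower, at -0.20 ± 0.04, and 3 were called higher, Krt19, Krt20 and Vil1. Over all tested genes 26.4% were called lower and 27.2% higher, so these counts are no result about the list. Epcam lost its call with the probe sets of each gene averaged. Without control mouse 2, 2 of the 8 were called lower, where 27.4% of all tested genes were. Cdh1 at -0.07 ± 0.05 and Krt8 at 0.09 ± 0.04 were not called. The mean level of the 8 ran from 12.44 to 12.67 in controls and from 12.55 to 12.73 in heme mice. The markers of enteric glia (3 of 3 on the array), mesothelium (3 of 3), enteric neurons (7 of 8) and endothelium (4 of 6) were over the floor in no mouse, and of 10 markers of skeletal and cardiac muscle 9 were not. The eighth neuron marker, Snap25, a protein of synaptic vesicle release, was over the floor in 4 of 6 controls and no heme mouse, at 4.75 ± 0.47 against 3.51 ± 0.42 (SD). All 9 heme values, each under the floor, were below the lowest control value of 4.24, which was under the floor too. The mean level of the 8 neuron markers, mostly background, was 2.89 to 3.18 in controls and 2.62 to 2.85 in heme mice. With no filter on signal 4 of the 8, Snap25, Chat, Uchl1 and Vip, were called lower, where 15.2% of all genes were. Chat, Uchl1 and Vip were over the floor in no mouse, so their calls rest on background values and the count is no result about neurons. The part of neurons in the differences of the smooth muscle genes was not tested.

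Set against the mean of the fibroblast markers in the same mouse, the heme minus control difference was -2.31 for Myh11, -1.89 for Tagln, -1.87 for Actg2 and -1.78 for Myl9. For Acta2 it was -1.08. This comparison was also chosen after the data were seen and has no test. With values under the floor set at it, Myh11 was at -2.08, Actg2 at -1.51 and Myl9 at -1.38. For each of these 5 differences 8 of 9 heme mice lay under all controls. Without control mouse 2 the values were between -2.52 for Myh11 and -1.23 for Acta2.

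**Figure D4:**
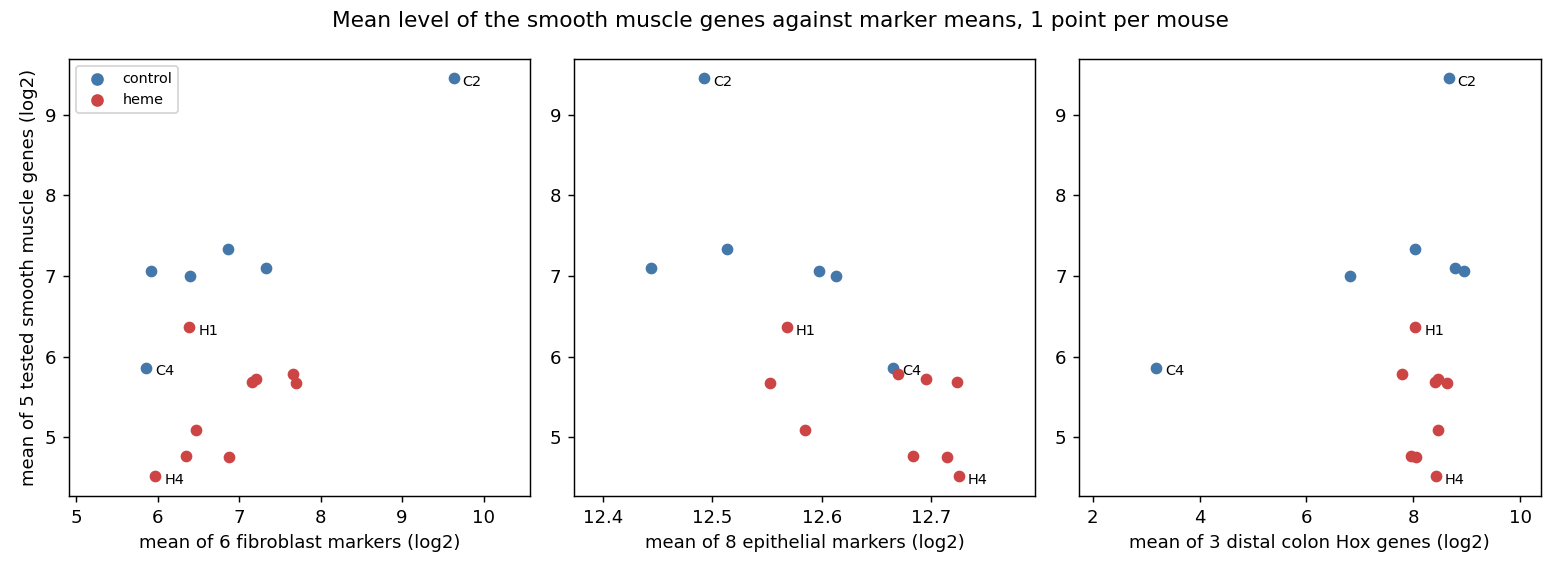
Mean log2 level of the 5 tested smooth muscle genes (vertical axis) against the mean log2 level of 6 fibroblast markers, 8 epithelial markers and 3 Hox genes of the distal colon (horizontal axes), 1 point per mouse, with control mice 2 and 4 and heme mice 1 and 4 labelled. Control mouse 2 is highest on the fibroblast axis at 9.63 and control mouse 4 lowest on the Hox axis at 3.19, and apart from control mouse 4 all controls lie above all heme mice on the vertical axis.

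The genes most like the 5 across mice were ranked by their correlation with the mean of the 5 after each group's mean was subtracted, over 15 mice and 9019 genes. The first 10 were Mustn1, Tpm2, Flna, Aspn, Dcn, Sparcl1, Postn, Cald1, Ogn and Pltp, with r between 0.869 and 0.924, against a median of -0.03 over all ranked genes. Of these 10, Sparcl1 at -1.18 ± 0.43 and Ogn at -1.60 ± 0.44 were called lower with heme (SE, adjusted p = 0.0292 and 0.00696, limma), and 8 were not called. Over all tested genes 26.4% were called lower, so this count is no result about the 10. Dcn, decorin of the matrix, was at -1.03 ± 0.60 and Pltp at -0.01 ± 0.18. Without control mouse 2 the 10 genes had r between 0.705 and 0.822, and 3 of them, Mustn1, Tpm2 and Aspn, were still among the first 10, and the other 7 were not.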

How the data were processed

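RNA from colon scrapings of 15 mice was hybridised to 1 Affymetrix array each. The authors deposited log2 expression values per probe set, made with GCRMA 2.22.0 per the submitters' processing notes. GCRMA corrects background by probe sequence and normalizes between arrays, which compresses differences of weak probe sets, and its settings are not known here. Of 45101 probe sets, 34958 had 1 gene symbol in the array annotation, 932 had several and 9211 were not listed in it and stayed unnamed. Each gene was represented by the probe set with the highest mean, and genes over a signal of 20 on at least 6 arrays were tested with lmFit and eBayes of limma 3.58.1 in R 4.3.3. P-values were adjusted by Benjamini-Hochberg over 9257 genes, with a threshold of 0.05. A fit on all 15717 tested probe sets gave the same 5 calls. Correlations and descriptions were computed in Python 3.11.15. The fit was tested on simulated data. The members and gene lists were chosen with earlier results of these data known. The rule for named genes took all members, the first 3 or 6 tested genes of each list and the 10 genes most like the members. Other genes were named after their values were seen. Alternatives changed the signal filter, probe set rule, scaling, variance model, replicate block and mice included. Promoter windows come from RefSeq (GRCm38.p6).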

Additional observations from a re-analysis of the deposited data

Results flagged for a closer look

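Of 134 sets of values checked, 25 held 1 mouse whose gap to the nearest other mouse of its group, as a share of the group's range, was above Dixon's 95% critical value for its size, where chance gives about 1 in 20. Of the 25, 16 were control mouse 2. Among the smooth muscle genes it stood high in Acta2 (gap 0.634), Cnn1 (0.69), Smtn (0.736) and Lmod1 (0.862). It stood high too in the mean levels of the contractile and thin filament list (0.631), the anchoring list (0.719) and the non-muscle relatives (0.666). Single genes with the same mouse highest were Tpm2 (0.642), Pdlim3 (0.811), Col1a2 (0.65), Pdgfrb (0.753), Ptprc (0.636), Aspn (0.764) and Sparcl1 (0.629). The same mouse was the lowest control for Acta1 (0.648), at 6.62 against 7.83 ± 0.21 in the others, and for Kit (0.723), at 9.10 against 10.17 ± 0.16 (SD).

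Heme mouse 1 stood high among heme mice in Cnn1 (0.514) and Pdlim3 (0.53). Control mouse 4 stood low in the mean of the Hox genes (0.63) and in Hoxb13 (0.742), at 3.77 against 11.01 ± 0.81 in the other controls. Heme mouse 9 stood apart in Tln1 (0.682), Mrtfa (0.563) and Ptprc (0.511), control mouse 7 in Srf (0.671) and control mouse 1 in Myl12b (0.673).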

How the results depend on the processing

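The 5 tested smooth muscle genes kept their direction and their call under every alternative that tested them, with adjusted p between 3.77e-05 and 0.0294 (limma). Leaving out 1 mouse at a time kept 5 of 5 called lower, where 23.6% to 27.4% of all tested genes were, with the median difference between -1.51 and -2.32. With no signal filter 8 of 10 genes and 8 of 15 probe sets were called lower, where 15.2% of all genes and 13.1% of all probe sets were. With a floor of 100 only Acta2 was left to test, 1 of 1 gene and 1 of 1 probe set, where 27.1% of genes and 25.2% of probe sets were called lower. Averaging the probe sets of each gene gave -0.42 for Acta2 and left Myh11 out, since its second probe set lies under the floor. The SD of the controls' mean level was 0.58 without control mouse 2 against 1.17 with it. Of the 10 genes most like the members, 3 remained without that mouse and 3 without the mice farthest from the median. Same-numbered mice of the 2 diets did not deviate together (r from -0.195 to 0.196 over 6 pairs, with 1 control correlating best with its own number). With the replicate number as a block 5 of 5 genes were still called lower, from -1.35 for Acta2 to -2.58 for Myh11, while calls over all genes went from 2445 to 1899 lower. Signals near the floor limit Cnn1, Des, Synm, Smtn and Lmod1.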

Other observations

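Some genes outside smooth muscle had differences near that of Acta2, and smaller than those of the other 4 tested smooth muscle genes. Kit, a receptor of interstitial cells of Cajal and mast cells, fell from 9.99 ± 0.46 in controls (SD, n = 6) to 8.71 ± 0.29 in heme mice (n = 9), a difference of -1.28 ± 0.18 (SE, adjusted p = 2.94e-05, limma). Control mouse 2 was its lowest control, at 9.10 against 10.17 ± 0.16 in the others (SD). The cells that the Kit signal came from were not tested. Ano1, a chloride channel of interstitial cells of Cajal that epithelium also makes, was at -0.17 ± 0.38 and not called. Acta1, skeletal alpha actin, fell from 7.63 ± 0.53 to 6.32 ± 0.45 (SD), a difference of -1.31 ± 0.23 (SE, adjusted p = 0.000254, limma), with control mouse 2 as its lowest control. Ptprc, the CD45 antigen of leukocytes, fell from 7.51 ± 0.59 to 6.47 ± 0.52 (SD), a difference of -1.04 ± 0.26 (SE, adjusted p = 0.00369, limma). It was the only 1 tested of 4 leukocyte markers. Cd3e and Cd68 were over the floor in no mouse, and Cd79a in 1 control and 1 heme mouse. Whether leukocytes as a whole differed was not tested. The Hox genes of the distal colon, Hoxa13 at 0.93 ± 0.41, Hoxb13 at 0.92 ± 0.92 and Hoxd13 at 0.67 ± 0.78, and Adipoq of adipocytes at -0.36 ± 0.85 were not called.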
